A study of Mus musculus with 15 samples.

Results

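The genes described here are 9 members of the lipoprotein lipase system: Angptl4, Angptl8, Lpl, Lipg, Lmf1, Sel1l2, Gpihbp1, Vldlr and Lrp1. They were chosen by name from the 43432 genes of the count table, for their known roles, when earlier results of these data, Angptl4 among them, were already known. Of the 9, 6 passed the filter on low counts and were among the 16736 genes tested. Lipg, Sel1l2 and Gpihbp1 did not pass.

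Transcripts were measured by RNA sequencing in 266-6 cells, an acinar line of the mouse pancreas cultured in a monolayer with 10% fetal bovine serum. All 15 libraries came from this 1 line, which spent 24 h in stripped medium before 24 h of ligand exposure. The 5 groups of 3 libraries received DMSO (the vehicle), AM580 (an agonist selective for the retinoic acid receptor RARα), CD3254 (an agonist of the retinoid X receptors, RXR), AM580 and CD3254 together (AM+CD), or 9-cis retinoic acid, a ligand of both receptor families. The labels give neither ligand concentrations nor whether replicates were separate cultures. The p-values therefore measure only the spread between libraries, which may be technical.

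Lipoprotein lipase hydrolyses the triglycerides of circulating lipoproteins and delivers fatty acids to cells. The enzyme is folded in the endoplasmic reticulum with lipase maturation factor 1 (Lmf1) and the degradation adaptor Sel1l, and is carried to the capillary lumen by the endothelial anchor Gpihbp1. Secreted angiopoietin-like proteins inactivate it, and lipoprotein receptors, among them Vldlr and Lrp1, take up the remnants. Angptl4 is a known target of the peroxisome proliferator-activated receptors (PPAR), which bind DNA as heterodimers with RXR, and in several cell types it is also known to be induced by low oxygen. Lpl is a known target of PPAR and of the liver X receptors, which also pair with RXR.

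The results turn on 2 genes, so a stretch of each is shown here from the GENCODE M21 transcripts. Angptl4 (ENSMUSG00000002289, chromosome 17, 33773750 to 33781830, minus strand, GRCm38) encodes a secreted inhibitor of lipoprotein lipase. Its transcript ENSMUST00000002360 has a coding sequence of 1230 bases with 410 codons before the stop. The first 150 coding bases begin the part of the protein that carries the signal peptide, and the start codon is in capitals:
Angptl4 coding bases 1 to 150: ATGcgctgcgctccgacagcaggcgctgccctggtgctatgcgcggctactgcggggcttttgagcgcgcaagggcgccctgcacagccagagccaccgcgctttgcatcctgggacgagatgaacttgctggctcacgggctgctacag
Lpl (ENSMUSG00000015568, chromosome 8, 68880491 to 68907448, plus strand, GRCm38) encodes the lipase itself. Its transcript ENSMUST00000015712 has a coding sequence of 1422 bases with 474 codons before the stop. The stretch from coding base 424 to 528 is shown because it holds the serine hydrolase motif of the active site, whose codons are in capitals:
Lpl coding bases 424 to 528: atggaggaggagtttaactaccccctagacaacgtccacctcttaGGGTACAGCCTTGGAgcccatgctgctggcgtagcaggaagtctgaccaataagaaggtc

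Reads assigned to genes numbered between 14600962, in replicate 3 of 9-cis retinoic acid, and 46801058. In that library 63.0% of the reads had no gene, against 18.1% to 28.5% in the other 14. The first principal component held 48.3% of the variance and set 5 libraries, with 1 from every treatment, against the remaining 10. These 5 were replicate 1 of DMSO, AM580, CD3254 and 9-cis retinoic acid, and replicate 2 of AM+CD. The labels name no batch or culture state for these 5 libraries (the 5-library set below), and it was defined from these counts. It entered the tests as a term, and no p-value between the sets is given. Of 15 acinar markers 11 averaged at least 1 CPM (read counts scaled to a common library total), and their summed level was between 6787 and 12021 CPM. The digestive enzyme genes Pnlip, Amy2a5 and Cpb1 and the granule membrane gene Gp2 averaged 0.339, 0.0786, 0.0482 and 0.273 CPM.

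Per kilobase of annotated exon, the 6 members that passed ranked in the order Vldlr, Angptl8, Lrp1, Angptl4, Lmf1, Lpl. Their mean levels over the 15 libraries were 31.6 ± 6.58, 19.9 ± 4.37, 9.41 ± 3.79, 6.32 ± 6.35, 3.71 ± 0.944 and 1.23 ± 0.781 RPKM (CPM per kilobase of exon, SD, n = 15). The ranges of neighbours in this order overlapped in each case. Angptl4 had an SD as large as its mean, with a range from 0.286 to 16.5 RPKM, and its mean lay at the 56.8 percentile of the tested genes. Vldlr, which ran from 22.3 to 43.9 RPKM, lay at the 88.7 percentile and Lpl, from 0.392 to 2.87 RPKM, at the 28.7 percentile. The scale uses the union of a gene's annotated exons (10.48 kb for Lpl), which lowers the values of genes with long alternative exons.

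Angptl4 transcript was high in the libraries that received CD3254, alone or with AM580, and low in the others. The level was 1.01, 14.9 and 10.1 CPM in the 3 DMSO libraries and 18.5, 58.5 and 57.3 CPM in the 3 CD3254 libraries. The libraries with AM+CD held 57.1, 11.8 and 57.1 CPM. All CD3254 libraries lay above all DMSO libraries, but AM+CD replicate 2 lay below DMSO replicate 2. That library belongs to the 5-library set, in which Angptl4 was low under each treatment. Within each set the libraries with and without CD3254 did not overlap, and the share of all genes that part this way is not given here. In the 5-library set the 2 libraries with CD3254 or AM+CD held 11.8 and 18.5 CPM and the 3 others between 1.01 and 1.95 CPM. In the 10-library set the 4 libraries with CD3254 or AM+CD held between 57.1 and 58.5 CPM and the 6 others between 9.24 and 15.4 CPM. Between 40 and 2645 reads per library stand behind these levels.

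**Figure D1:**
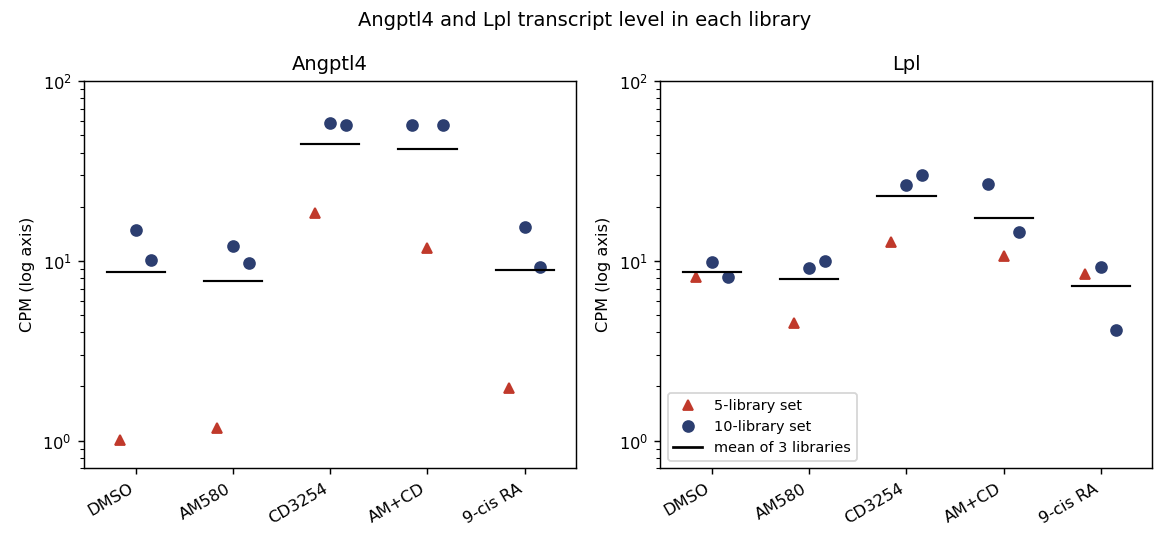
Level of Angptl4 (left) and Lpl (right) in CPM, log axis, in each of the 15 libraries by treatment. Triangles are the 5-library set, circles the 10-library set, and the line is the mean of 3 libraries. Angptl4 lies between 57.1 and 58.5 CPM in the 4 circles with CD3254 or AM+CD.

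With AM580 or 9-cis retinoic acid Angptl4 overlapped the vehicle level. The AM580 libraries held 1.17, 12.2 and 9.72 CPM and those with 9-cis retinoic acid 1.95, 15.4 and 9.24 CPM. Neither group stood apart from DMSO, and the low value was again in the library of the 5-library set. The group means in descending order were 44.7 ± 22.8 CPM with CD3254, 42.0 ± 26.2 with AM+CD, 8.87 ± 6.75 with 9-cis retinoic acid, 8.66 ± 7.05 with DMSO and 7.68 ± 5.77 with AM580 (SD, n = 3 each). Each group holds 1 library of the 5-library set, and that library was the lowest of its group in all 5.

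With CD3254 against DMSO, 1 of the 6 tested members was called, at an adjusted p (FDR, Benjamini-Hochberg over all genes in the comparison, edgeR's quasi-likelihood test) under 0.05, against 0.0239% of all genes tested. That member was Angptl4, which rose 6.96-fold (log2 change 2.80 ± 0.34 SE, 95% interval 2.07 to 3.53, edgeR FDR = 0.0105) and had the smallest p of the 16736 genes. AM+CD against DMSO also called 1 of 6, against 0.125% of all genes: Angptl4 rose 5.71-fold (log2 change 2.51 ± 0.34, edgeR FDR = 0.00523). AM+CD against AM580 again called Angptl4 alone among the 6, against 0.012% of all genes, with a 6.16-fold rise (log2 change 2.62 ± 0.34, edgeR FDR = 0.0172). These comparisons share libraries, so they are not independent of one another. In the fit without the library set term Angptl4 was called in none of them, at edgeR FDR values of 0.9996 or above. The CD3254 call was also lost without DMSO replicate 1 (FDR = 0.0677) or 3 (FDR = 0.199), and the AM+CD call against DMSO without DMSO replicate 3 (FDR = 0.0670). That against AM580 was lost without any 1 of the 3 AM580 libraries, the 3 AM+CD libraries or DMSO replicate 3, at FDR values between 0.0586 and 0.245.

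Averaged over the presence of AM580, CD3254 raised Angptl4 6.55-fold (log2 change 2.71 ± 0.24, 95% interval 2.19 to 3.23, edgeR FDR = 0.000195). Here too Angptl4 was the 1 member of 6 called, against 0.0598% of all genes, and it ranked 2 by p. It was called in each of the 15 fits that left out 1 library, at edgeR FDR values between 0.000114 and 0.00325, and was not called without the library set term (edgeR FDR = 0.9996). An exact two-sided permutation test of this 1 gene, added after its values were seen, compared the 6 libraries with CD3254 or AM+CD with the 6 with DMSO or AM580. The difference of 2.77 in mean log2 CPM gave an exact permutation p = 0.00649 over the 924 arrangements. This p does not allow for the choice of the gene with its values known, so it adds no support. The arrangements also mix the library sets.

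Comparisons in which AM580 was the difference did not call Angptl4. AM580 against DMSO called 0 of 6 members by edgeR and 0 by DESeq2, against 0.0299% of all genes by edgeR and 17 genes by DESeq2. The Angptl4 log2 change there was -0.11 (95% interval -0.81 to 0.59). AM+CD against CD3254 called 0 of 6 by either tool, against 0.0299% by edgeR and 17 genes by DESeq2, with an Angptl4 log2 change of -0.29 (-0.96 to 0.39). The interaction, which asks whether the change with AM580 differed in the presence of CD3254, called 0 of 6 members and 0% of all genes by edgeR, 0 genes by DESeq2 and 332 genes at an unadjusted edgeR p under 0.05. For Angptl4 it was -0.18 on the log2 scale (-1.15 to 0.80). The intervals cover changes of either sign, so these data do not show that AM580 has no effect on Angptl4.

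9-cis retinoic acid, which binds RXR as well as the retinoic acid receptors, left Angptl4 under the level seen with CD3254. Against DMSO it called 0 of 6 members by edgeR or DESeq2, against 0.0299% of all genes by edgeR and 23 genes by DESeq2. The Angptl4 log2 change there was 0.20 (95% interval -0.51 to 0.91). Against CD3254 it called 1 of 6, against 0.0299%: Angptl4 was lower, with a log2 difference of -2.60 ± 0.34 (-3.33 to -1.87, edgeR FDR = 0.0196). The call was lost without AM580 replicate 3 (FDR = 0.0513) or replicate 1 (FDR = 0.303) or 3 (FDR = 0.178) of 9-cis retinoic acid. Against AM+CD the difference was -2.31 ± 0.34 (-3.03 to -1.60), and 0 of 6 members were called by edgeR (FDR = 0.0638), against 0.00598% of all genes. DESeq2 called 1 member there, and 6 genes among all. The Angptl4 difference did pass without DMSO replicate 1 or 2, AM580 replicate 1 or CD3254 replicate 1, at edgeR FDR values between 0.0109 and 0.0410. Against AM580 it called 0 of 6 members and 0% of all genes by edgeR, 0 genes by DESeq2 and 241 genes at an unadjusted edgeR p under 0.05. AM580 against CD3254 called Angptl4 of the 6, against 0.012% of all genes, with a log2 difference of -2.91 ± 0.34 (edgeR FDR = 0.00607, or 0.0990 without AM580 replicate 3). No concentration is known for any ligand, so the values stand side by side for these treatments as given.

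**Figure D2:**
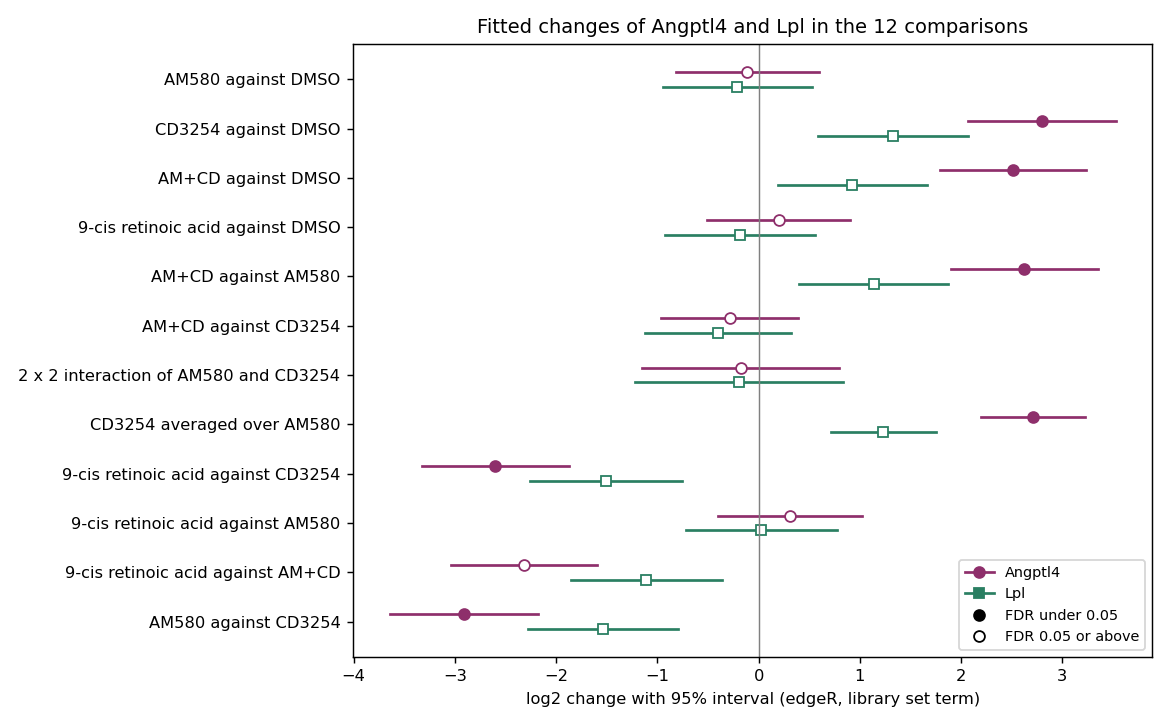
Fitted log2 changes (horizontal axis) of Angptl4 (circles) and Lpl (squares) in the 12 comparisons, with 95% intervals from the fit with the library set term. Filled symbols have an edgeR FDR under 0.05. Angptl4 is filled in 6 comparisons and Lpl in 0.

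Lpl, the enzyme that Angptl4 inactivates, was also highest in the libraries with CD3254 or AM+CD. The level was 8.16, 9.81 and 8.12 CPM with DMSO, and 4.52, 9.16 and 10.0 CPM with AM580. It was 12.7, 26.4 and 30.1 CPM with CD3254 and 26.8, 10.6 and 14.4 CPM with AM+CD. Libraries with 9-cis retinoic acid held 8.43, 9.26 and 4.11 CPM, the last in the library with the fewest gene reads. All 6 libraries with CD3254 or AM+CD lay above all 9 others, and the share of all genes that part this way is not given here. The group means were 23.0 ± 9.17 CPM with CD3254, 17.3 ± 8.48 with AM+CD, 8.70 ± 0.967 with DMSO, 7.89 ± 2.95 with AM580 and 7.27 ± 2.77 with 9-cis retinoic acid (SD, n = 3 each). Between 48 and 1390 reads per library stand behind these levels.

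Lpl did not pass the test in any of the 12 comparisons. The fitted log2 difference was 1.33 ± 0.34 for CD3254 against DMSO (95% interval 0.59 to 2.07, edgeR FDR = 0.9999) and 0.93 ± 0.34 for AM+CD against DMSO (edgeR FDR = 0.803). Averaged over AM580, CD3254 gave 1.23 ± 0.24 (0.71 to 1.75, unadjusted p = 0.000172, edgeR FDR = 0.143), which ranked 20 of 16736 genes by p. This difference did pass with DESeq2 (FDR = 0.000441), in the fit of those 4 groups only (edgeR FDR = 0.0390) and without replicate 3 of 9-cis retinoic acid (edgeR FDR = 0.0366). Lpl was also called by DESeq2 in the comparisons of CD3254 with 9-cis retinoic acid (FDR = 0.0201) and with AM580 (FDR = 0.0154). AM580 against DMSO gave -0.21 and 9-cis retinoic acid against DMSO -0.18 on the log2 scale, neither called.

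**Figure D3:**
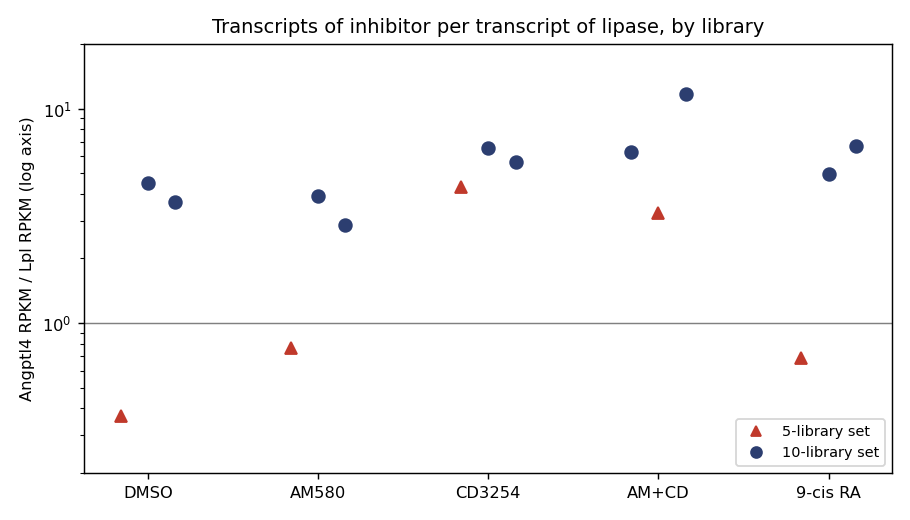
Ratio of Angptl4 to Lpl level (each in RPKM by the union of annotated exons, log axis) in each library by treatment. Triangles are the 5-library set and circles the 10-library set, and the line marks equal levels. Only 3 libraries, all triangles without CD3254, lie under the line.

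Per kilobase of annotated exon, the inhibitor exceeded the lipase in 12 of the 15 libraries. The ratio of Angptl4 to Lpl in RPKM was 0.368, 4.50 and 3.66 with DMSO and 4.31, 6.57 and 5.63 with CD3254. It was 6.29, 3.27 and 11.7 with AM+CD, 0.769, 3.93 and 2.88 with AM580, and 0.685, 4.93 and 6.66 with 9-cis retinoic acid. The 3 libraries under 1 were those of the 5-library set with DMSO, AM580 and 9-cis retinoic acid. These are ratios of transcript, not of protein. They divide by the union of annotated exons, 3.54 kb for Angptl4 and 10.48 kb for Lpl. The transcripts shown above have 3308 and 4115 bases, and with those lengths every ratio would be lower.

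Angptl8 (ENSMUSG00000047822, chromosome 9, 21835510 to 21837347), which encodes another secreted regulator of the lipase, did not follow Angptl4. Its group means were 14.6 ± 3.17 CPM with DMSO, 21.3 ± 4.34 with AM580, 15.4 ± 3.62 with CD3254, 17.8 ± 1.65 with AM+CD and 17.1 ± 3.90 with 9-cis retinoic acid (SD, n = 3 each). The AM580 libraries (26.2, 18.3 and 19.3 CPM) lay above the DMSO libraries (11.0, 16.9 and 15.9 CPM) without overlap. With 3 libraries a group this alone says little, and the share of all genes that part this way is not given here. The fitted log2 difference of 0.57 ± 0.22 (95% interval 0.10 to 1.04, unadjusted p = 0.0204) was not called (edgeR FDR = 0.808). It was 0.26 without AM580 replicate 1, and the log2 CPM difference was 1.25 in the 5-library set, with 1 library a group, and 0.20 in the 10-library set. Angptl8 lies inside the span of Dock6, on the opposite strand and without shared exon bases. Whether the counting used strand is not stated, so reads from Dock6 introns there cannot be told apart from Angptl8 reads.

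Lipg (ENSMUSG00000053846, chromosome 18, 74939322 to 74961263), the endothelial lipase, was close to the detection limit. It had 72 reads in all 15 libraries together, of 558461368 gene reads, and at most 11 in any 1 library. Gpihbp1 (ENSMUSG00000022579, chromosome 15, 75596628 to 75599481), the endothelial anchor of the lipase, had 2 reads, and Sel1l2 (ENSMUSG00000074764, chromosome 2, 140229855 to 140389706), a paralogue of Sel1l, had 1. For these 3 genes no difference between treatments was detectable at this depth. The 6 endothelial markers summed to between 3.14 and 8.92 CPM, with Cdh5 at 0.0156 and Pecam1 at 0.458 CPM on average. The 5 adipocyte markers summed to at most 0.243 CPM, with Adipoq at 0.0169 and Plin1 at 0.0757 CPM on average; these mark the cells best known for Lpl.

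Lmf1 (ENSMUSG00000002279, chromosome 17, 25579085 to 25662826), needed for the folding of the lipase, differed little with treatment. Its group means were 47.6 ± 8.20 CPM with DMSO, 55.5 ± 25.0 with AM580, 48.1 ± 11.2 with CD3254, 47.0 ± 13.2 with AM+CD and 53.7 ± 8.23 with 9-cis retinoic acid. The fitted log2 difference for CD3254 against DMSO was 0.00 (95% interval -0.30 to 0.30), and none of the 12 comparisons called it. Sel1l, the paralogue of Sel1l2 with the known role in lipase maturation, averaged 1279 CPM. Averaged over AM580 it differed with CD3254 by 0.49 ± 0.15 on the log2 scale, which was not called (edgeR FDR = 0.793).

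The receptors Vldlr and Lrp1 were not called in any comparison either. Vldlr (ENSMUSG00000024924, chromosome 19, 27216484 to 27254231), which binds triglyceride-rich particles, had group means of 316 ± 80.2 CPM with DMSO, 273 ± 42.7 with AM580, 340 ± 89.1 with CD3254, 357 ± 66.8 with AM+CD and 302 ± 60.4 with 9-cis retinoic acid. Lrp1 (ENSMUSG00000040249, chromosome 10, 127538161 to 127621148), a large endocytic receptor for remnants, had 181 ± 75.1, 149 ± 42.2, 155 ± 79.0, 182 ± 111 and 167 ± 64.0 CPM in the same order. For CD3254 against DMSO the intervals were -0.36 to 0.56 for Vldlr and -0.89 to 0.38 for Lrp1 on the log2 scale and cover both signs.

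**Figure D4:**
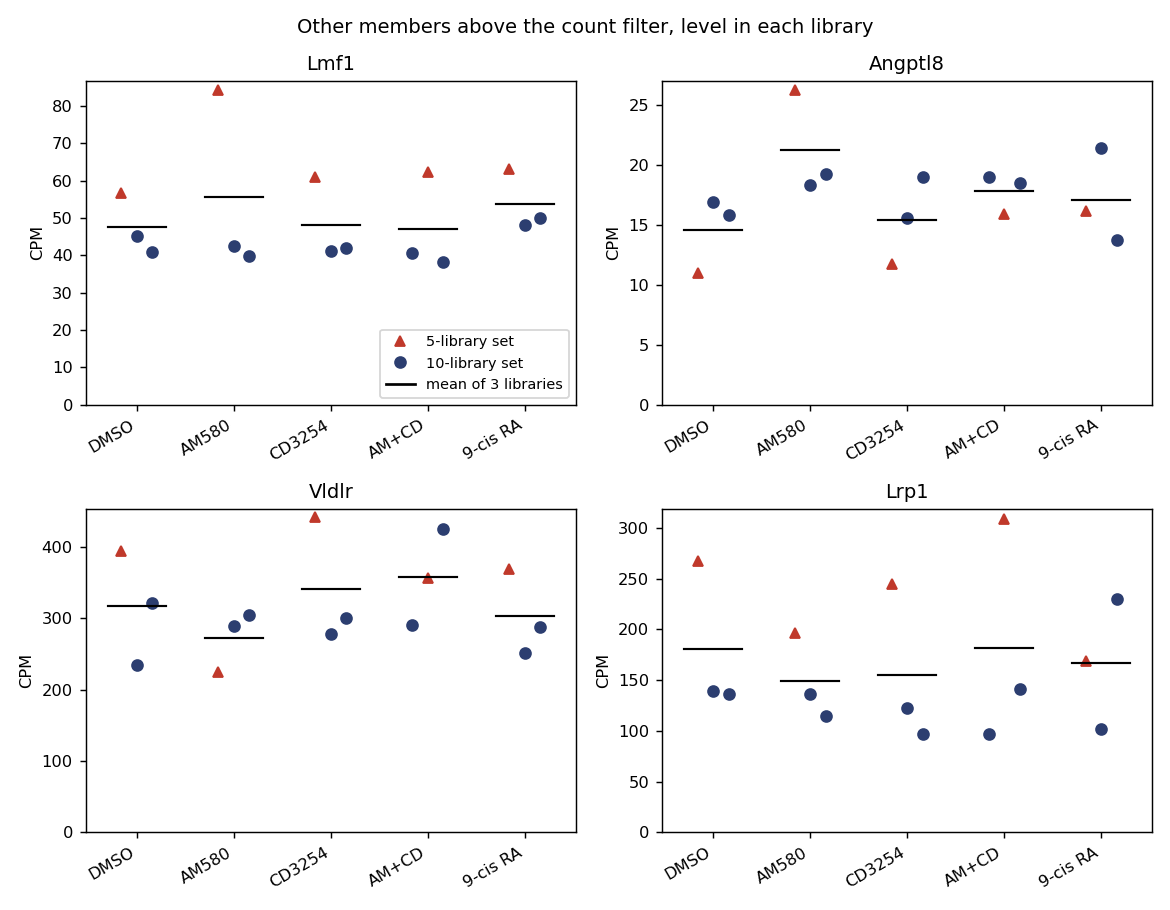
Level in CPM (axes start at 0) of Lmf1, Angptl8, Vldlr and Lrp1 in each library by treatment. Triangles are the 5-library set, circles the 10-library set, and lines are means of 3 libraries. Lmf1 is at 56.8 CPM or more in the triangles and at 49.9 CPM or less in the circles.

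The library sets parted several members in the same direction under each treatment. The sets are the sides of the first principal component of these counts, so many genes can be expected to part between them. The share of all genes that part under all 5 treatments, or without overlap, is not given here. Angptl4 was lower in the 5-library set under all 5 treatments, by log2 differences in CPM of -3.53 with DMSO, -3.15 with AM580, -1.65 with CD3254, -2.27 with AM+CD and -2.58 with 9-cis retinoic acid. Lmf1 was higher in that set under all 5, by 0.37 to 1.04, and its sets did not overlap (56.8 to 84.3 against 38.2 to 49.9 CPM). Lrp1 was higher under all 5 as well, by 0.14 to 1.40, with means of 237 ± 55.7 (n = 5) and 132 ± 38.8 CPM (n = 10). Lpl was lower in 4 of 5, Vldlr higher in 4 of 5 and Angptl8 lower in 4 of 5. The maturation gene Sel1l was lower under all 5 treatments (620 ± 155 against 1608 ± 421 CPM).

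Genes known to be induced by low oxygen moved with the same split. The 14 listed genes, among them Ndrg1, Bnip3 and Vegfa, summed to between 4832 and 5649 CPM in the 5-library set and between 563 and 775 CPM in the other 10 libraries, and 14 of 14 had the higher median in the 5-library set. Angptl4, known in other cells as a low-oxygen gene, was lower there. Acinar markers had the higher median in the 5-library set for 1 of 15 genes. The transcription factor genes Ptf1a and Rbpjl stood at 26.0 ± 4.68 and 104 ± 24.3 CPM there against 62.9 ± 7.96 and 288 ± 53.8 CPM, and the lipase gene Cel at 5.95 ± 1.21 against 17.5 ± 2.04 CPM. The summed acinar level overlapped, at 6787 to 12021 against 7915 to 11868 CPM. Cpa1 (549 ± 205 against 559 ± 136 CPM) and Ctrb1 (4728 ± 1399 against 5454 ± 999 CPM) differed less. Cela1 stood at 1239 ± 403 against 2376 ± 652 CPM. Ductal markers had the higher median in the 5-library set for 5 of 6 genes, with Spp1 at 37.2 ± 7.30 against 4.96 ± 2.27 CPM. Their summed level overlapped, at 53.1 to 77.1 against 41.9 to 68.9 CPM. The share of all genes with the higher median in the 5-library set is not given here. Endothelial markers summed to 7.01 to 8.92 CPM in the 5-library set and 3.14 to 5.54 CPM in the other 10. The median was higher in the 5-library set for 5 of 6 genes. Tek stood at 6.38 ± 0.790 against 1.85 ± 0.604 CPM, and Kdr, which went the other way, at 0.670 ± 0.198 against 2.10 ± 0.539 CPM. Macrophage markers, led by Cd68, summed to 9.65 to 24.7 CPM and 4.62 to 8.37 CPM, with the higher median in the 5-library set for 3 of 5 genes. The part of any of these in the member levels was not tested, and in bulk RNA fewer cells of a type and less RNA per cell cannot be told apart.

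**Figure D5:**
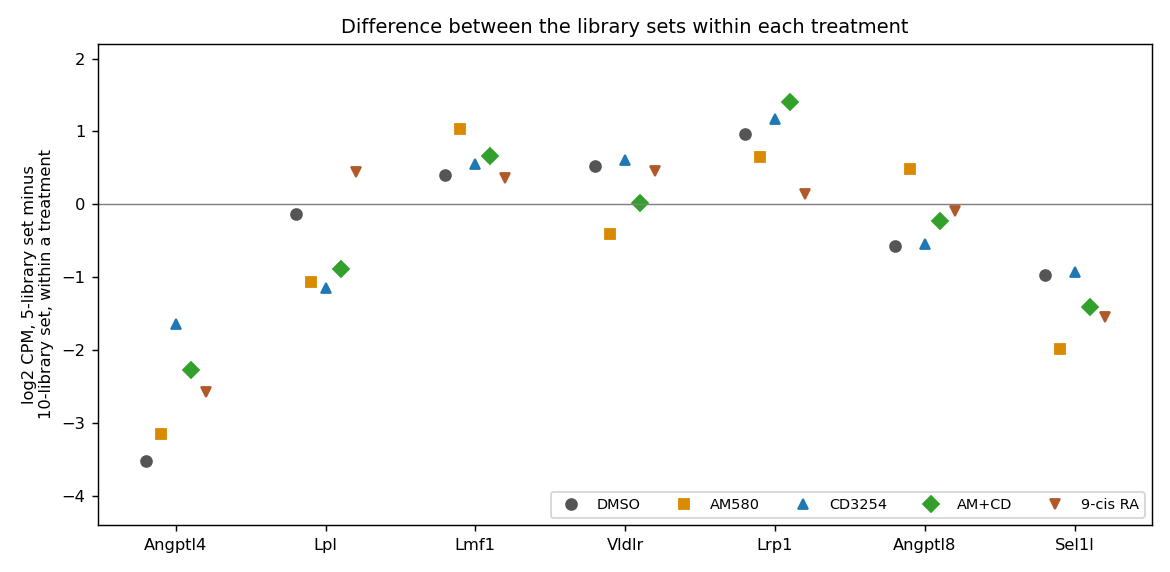
Difference in log2 CPM between the 5-library set and the 10-library set within each treatment, for 6 members and for Sel1l. Each point is 1 treatment, with 1 library of the 5-library set against the mean of the others. Angptl4 and Sel1l are below 0 and Lmf1 and Lrp1 above 0 under all 5 treatments.

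The share of variance in log2 CPM tied to treatment was higher for Lpl and Angptl4 than for the other 4 members that passed. Treatment held 50.8% of the variance of Angptl4 and 64.8% of that of Lpl, above 97.3% and 99.3% of the tested genes, whose median was 16.1%. It held 38.8% for Angptl8, 21.3% for Vldlr, 7.29% for Lmf1 and 3.52% for Lrp1. The library set held 78.7% for Lmf1, 59.2% for Lrp1, 45.4% for Angptl4, 16.03% for Vldlr, 10.5% for Lpl and 8.76% for Angptl8. The median was 33.5%, and these shares lay above 85.8%, 70.0%, 59.7%, 34.0%, 27.4% and 25.0% of the tested genes, in that order.

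The CD3254 difference in Angptl4 was also taken within each library set. CD3254 exceeded DMSO by 4.12 in the 5-library set and by 2.24 in the 10-library set on the log2 scale, and AM+CD exceeded AM580 by 3.27 and 2.39. A term for this difference, added after the data were seen, gave 1.19 ± 0.34 (95% interval 0.46 to 1.93, unadjusted p = 0.00383), which was not called (edgeR FDR = 0.9999, 0 of 16736 genes called). For Lpl the CD3254 difference from DMSO was 0.63 in the 5-library set and 1.65 in the 10-library set, and the same term gave -0.78 ± 0.44 (edgeR FDR = 0.9999).

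The promoter table of RefSeq (GRCm38.p6) held 5 of the 9 members, Angptl8, Lmf1, Lrp1, Sel1l2 and Vldlr, the last with 2 windows. It had no entry for Angptl4, Lpl, Gpihbp1 or Lipg. Each window runs from 250 bases before to 50 after a start, and both strands were searched. The stretches before the starts of Lrp1 and Lmf1 are shown because both were higher in the 5-library set under each treatment, with the GC box (GGGCGG, here on the other strand as CCGCCC) in capitals:
Lrp1, chr10:127621149-127621398, minus strand: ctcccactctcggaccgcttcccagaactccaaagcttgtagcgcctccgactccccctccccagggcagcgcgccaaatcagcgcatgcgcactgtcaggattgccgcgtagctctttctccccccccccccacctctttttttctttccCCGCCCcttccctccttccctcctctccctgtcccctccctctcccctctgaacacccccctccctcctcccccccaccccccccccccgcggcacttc
Lmf1, chr17:25578924-25579084, plus strand: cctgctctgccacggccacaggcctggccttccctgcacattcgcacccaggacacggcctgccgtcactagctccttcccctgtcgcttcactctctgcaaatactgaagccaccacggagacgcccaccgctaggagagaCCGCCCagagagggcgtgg
The GC box occurred in 35.7% of the 32851 windows, so its presence in both is a common feature. None of the 6 member windows held AGGTCA, the core bound by receptors that pair with RXR (16.3% of windows), or ACGTG, the core bound by hypoxia-inducible factors (19.6%). Direct repeats of AGGTCA were rare in windows of this length, at 0.0396% with a spacing of 1, 0.0152% with 4 and 0.00913% with 5, and all of them also count as AGGTCA matches. A missing match says only that these letters are not in the window.

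The wider lipase pathway was described from a list. Of 25 further listed genes (among them apolipoproteins, proprotein convertases, heparan sulfate proteoglycans, receptors and intracellular lipases), 20 were tested and 0 were called in any of the 12 comparisons by edgeR. With between 0% and 0.125% of all genes called per comparison, a count of 0 in 20 says nothing particular about the pathway. Averaged over AM580, 12 of the 20 lay above 0 with CD3254, against 48.7% of all genes. Their median log2 difference was 0.05, against -0.01 over all genes. Of the 20, 3 had an unadjusted edgeR p under 0.05 there, against 815 of all 16736 genes. They were Sel1l, the convertase gene Pcsk6 and the apolipoprotein gene Apoc1. The genes with the highest mean CPM were Sel1l, the apolipoprotein gene Apoe (568 ± 153 CPM, SD, n = 15) and the perlecan gene Hspg2 (204 ± 80.6 CPM). The lipase activator Apoc2 averaged 0.0939 CPM.

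Among 16 listed PPAR targets 13 were tested, and 1 was called with CD3254 averaged over AM580, against 0.0598% of all genes. This was Cpt1a, which encodes the enzyme of fatty acid import into mitochondria. Its level was 96.5 ± 29.1 CPM with DMSO, 128 ± 39.1 with AM580, 196 ± 58.3 with CD3254 and 209 ± 57.2 with AM+CD. The fitted rise averaged over AM580 was 0.87 ± 0.09 on the log2 scale (edgeR FDR = 0.00145). In AM+CD against AM580, 0 of the 13 were called. Of the 13, 10 lay above 0, against 48.7% of all genes, with a median of 0.07 against -0.01 over all genes. Pdk4, a kinase gene that restrains glucose oxidation, held 0.229 ± 0.103 CPM with DMSO, 0.221 ± 0.0907 with AM580, 1.02 ± 0.301 with CD3254 and 0.901 ± 0.254 with AM+CD. Its averaged log2 difference of 2.08 ± 0.36 was larger than that of Cpt1a but was not called (unadjusted p = 4.6e-05, edgeR FDR = 0.0696). Of 11 nuclear receptor genes 10 were tested. The retinoic acid receptor gene Rarb rose with AM+CD and with 9-cis retinoic acid against DMSO (log2 changes 3.21 and 3.07, edgeR FDR = 0.00679 and 0.0296). With AM580 alone its log2 difference from DMSO was 2.56 ± 0.44 (0.332 ± 0.112 against 1.96 ± 0.581 CPM, edgeR FDR = 0.105), which was not called. The PPAR genes Ppara, Ppard and Pparg averaged 3.99 ± 2.32, 45.7 ± 23.3 and 1.45 ± 0.393 CPM over the 15 libraries and were called in none of the 12 comparisons.

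Genes were ranked by how like their profile was to that of Angptl4. Likeness was Pearson's r of log2 CPM over the 15 libraries, among the 12330 genes that averaged 1 CPM or more. It is a description without a test, since these points share libraries and treatments. With the means of the library sets removed the first 5 were Acot2 (r = 0.90), Gramd1b (0.90), Cpt1a (0.89), Rnf145 (0.87) and Lpcat3 (0.87). Without that step, when the set split also enters r, the highest included Acot2, Cpt1a, Abca1 and Utp14b, with r between 0.87 and 0.94. Acot2 encodes a mitochondrial acyl-CoA thioesterase and may share reads with its near-identical neighbour Acot1, Abca1 a cholesterol efflux transporter and Lpcat3 a phospholipid acyltransferase. Among the members r with Angptl4 after removal of the set means was 0.79 for Lpl, 0.42 for Vldlr, -0.10 for Lrp1, -0.13 for Angptl8 and -0.38 for Lmf1.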

How the data were processed

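Total RNA of 15 libraries was sequenced. The deposited table holds raw counts of reads per Ensembl gene, without normalization. The tools named are FastQC, HISAT2 2.2.1, SAMtools 1.18 and HTSeq on mm10, per the submitters' processing notes. The strand setting is not given in the sources used here, nor is the annotation release. Reads without a gene were left out. Of 43432 identifiers, 42462 matched a symbol.

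Counts were tested with edgeR 4.0.16 in R 4.3.3 (filterByExpr, TMM scaling, robust quasi-likelihood fits) on all 15 libraries with a term for the library set, which left 9 residual degrees of freedom (10 without it). The 12 comparisons were two-sided, adjusted by Benjamini-Hochberg over the 16736 genes, with a threshold of 0.05. CPM uses TMM-scaled totals, and RPKM divides it by exon length. Log2 CPM has a prior count of 2. Coordinates are GENCODE M21 on GRCm38. DESeq2 1.42.0, other scalings, filters, subsets, replicate blocks and fits without each library were alternatives. The procedure was tested on simulated data.

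The members, lists, library set and named genes (all members, list genes past the threshold, otherwise the 3 with the highest mean CPM, and the 5 most like Angptl4) were chosen with earlier results of these data known. Pdk4, the PPAR receptor genes, Apoc2 and single marker genes were named for their roles, after their values were seen. Some genes that these rules select are not reported here.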

Additional observations from a re-analysis of the deposited data

How the results depend on the processing

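Of 1872 values for the 6 tested members (72 results under 26 alternatives each), 1826 stayed on the same side of the threshold. In 114 of these the sign changed with neither value called. Another 34 lost and 12 gained a call, and 0 reversed. Most results were not called at first and had no call to lose, and all 34 losses fell on Angptl4. Its call held in 19 of 26 alternatives for CD3254 against DMSO, 23 for AM+CD against DMSO and 16 for AM+CD against AM580. It held in 24 for the average over AM580, 19 for 9-cis retinoic acid against CD3254 and 21 for AM580 against CD3254. Scalings moved the median of all genes by at most 0.037. Without the library set term, alone or with a replicate block, 0 members were called in each comparison, and the Angptl4 log2 change was 2.37 and 2.67 for CD3254 against DMSO, 2.45 and 3.39 for AM+CD against AM580 and 2.41 and 3.03 for CD3254 averaged over AM580. With a replicate block and the term no call changed (2.75 for the average, edgeR FDR = 0.000482). Depth limits Lipg, Gpihbp1 and Sel1l2, since 3 reads correspond to 0.0639 to 0.257 CPM. As the libraries stand, same-numbered pairs correlated at a median of 0.385, against -0.210 for pairs with other numbers. Of the 30 same-numbered pairs 20 correlated over 0.1. With set means removed the medians were -0.00816 and -0.016, and 10 of 30 correlated over 0.1. Most replicate 1 libraries lie in the same library set, so removing set means also removes likeness among them. These values therefore cannot decide whether replicate numbers pair the libraries. Without the count filter Angptl4 gave 2.80 for CD3254 against DMSO (edgeR FDR = 0.0799) and 2.60 for AM+CD against AM580 (FDR = 0.210), and 0 members were called there or between CD3254 and 9-cis retinoic acid or AM580. In the fits of only the compared groups 0 were called in CD3254 against DMSO (Angptl4 2.67), 9-cis retinoic acid or AM580, and 2 in the average over AM580. The 10-library set alone called 0 in CD3254 against DMSO (Angptl4 2.21, edgeR FDR = 0.112). DESeq2 called 2 members in the average (among 49 genes called), in CD3254 against 9-cis retinoic acid (among 15) and against AM580 (among 14). It called 1 member in 9-cis retinoic acid against AM+CD (among 6). Leaving out 9-cis retinoic acid replicate 3 together with AM580 replicate 1, 2 were called in the average and 1 in the last. With each library left out in turn, the members called ranged from 0 to 1 in CD3254 against DMSO (Angptl4 2.36 to 3.14), AM+CD against AM580 (2.42 to 2.84), AM+CD against DMSO, 9-cis retinoic acid against CD3254 or AM+CD and AM580 against CD3254, and from 1 to 2 in the average (2.52 to 2.88). The cause of these losses and gains was not tested. The subsets hold fewer libraries, and the fit without the filter holds more genes.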
